A study of Mus musculus with 4 samples.

Results

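Split initiation zones are zones of one list that overlap at least 2 separate zones of the other list. The 2 lists, set 1 and set 2, give the first 1 kb bin, the last 1 kb bin and a score for each initiation zone of E14tg2a mouse embryonic stem cells. Members were chosen by position and score: a zone on chromosomes 1 to 19 that shared a bin with 2 or more zones of the other list, unless it overlapped a zone of the other list while both stood at or above the 90th percentile of score in their own list. Of 52116 zones in both lists, 3575 met this rule. Set 1 held 1441 of them (5.17% of its 27871 zones), with pieces in set 2. Set 2 held 2134 (8.80% of its 24245 zones), with pieces in set 1. Because overlap and score chose the members, what follows is a description of 2 lists and carries no test.

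The lists come from polymerase-usage sequencing, which maps ribonucleotides left in genomic DNA by alkali cleavage. The parent line has the genotype Tet-OsTIR1::Rosa26(bi) with mAID-RNaseh2a::puroR(bi), so that an auxin-dependent degradation tag sits on RNaseh2a, part of the RNase H2 enzyme that cuts out ribonucleotides. The Pole1-M630F line has the same alleles and in addition Pole1-M630F(bi), a mutant of the catalytic subunit of DNA polymerase ε. Both lines, with 2 replicates each, received doxycycline and auxinole for 24 h and then doxycycline and the auxin IAA for 12 h, so the tag and the treatment are common to all 4 samples. The parent and the mutant library of replicate 1 both carry the name set 1 and those of replicate 2 the name set 2. The sources used here do not give whether the zone calls used both lines, or whether replicates were separate cultures or clones. The lists hold no values for single libraries and no expression values, so depth is unknown and the cell type could not be checked against markers.

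Mammalian replication starts within broad initiation zones, where forks leave in both directions from sites that differ between cells. DNA polymerase ε makes most of the leading strand, so the strand that carries its ribonucleotides changes across a zone. A zone caller turns such a transition into an interval, and a broad transition can be listed as 1 interval or as several with gaps between them.

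Most split zones had exactly 2 pieces. In set 1, 1291 members (89.6%) had 2 pieces, 138 had 3, 11 had 4 and 1 had 5. In set 2, 1819 members (85.2%) had 2 pieces, 281 had 3, 33 had 4 and 1 had 5. Before the exclusion of pairs strong in both lists, 1643 zones of set 1 (5.90%) and 2490 of set 2 (10.3%) had 2 or more pieces, and the exclusion removed 202 and 356 of them. The rule asks for only 1 shared bin, and in 385 set 1 members (26.7%) and 573 set 2 members (26.9%) at least 1 piece met the zone in a single bin. With at least 5 shared bins asked of every piece, 683 and 1088 members were left. With at least 50% of each piece inside the member, 716 and 1240 were left.

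The member of set 1 closest to the medians of its 2-piece members in width, score, gap width and share of the top piece lay on chromosome 6, from 128767000 to 128826000 (GRCm39, as are all positions here). It was 60 kb wide with a score of 40.4, at percentile 83.1 of its list. Its pieces in set 2 ran from 128678000 to 128807000, with a score of 87.1, and from 128823000 to 128835000, with a score of 14.1. A gap of 15 kb lay between them, and both pieces reached beyond the member. In measures not matched it stood apart. Its pieces covered 75% of its bins, against a median of 49.2% in 2-piece members. Its left piece was 130 kb wide and stood at percentile 92.4 of set 2, above the member's 83.1. Only 18.9% of set 1 members had a top piece that stood higher than the member. The corresponding member of set 2 lay on chromosome 19, from 29010000 to 29071000, at a score of 45.8 and percentile 80.5. Its pieces in set 1 ran from 29021000 to 29025000 and from 29042000 to 29065000, with scores of 2.93 and 24.5 and a gap of 16 kb. Here both pieces lay within the member. Scores are the authors' own, without a stated unit or scale, so levels are compared between lists only as percentiles of rank within each list.

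**Figure D1:**
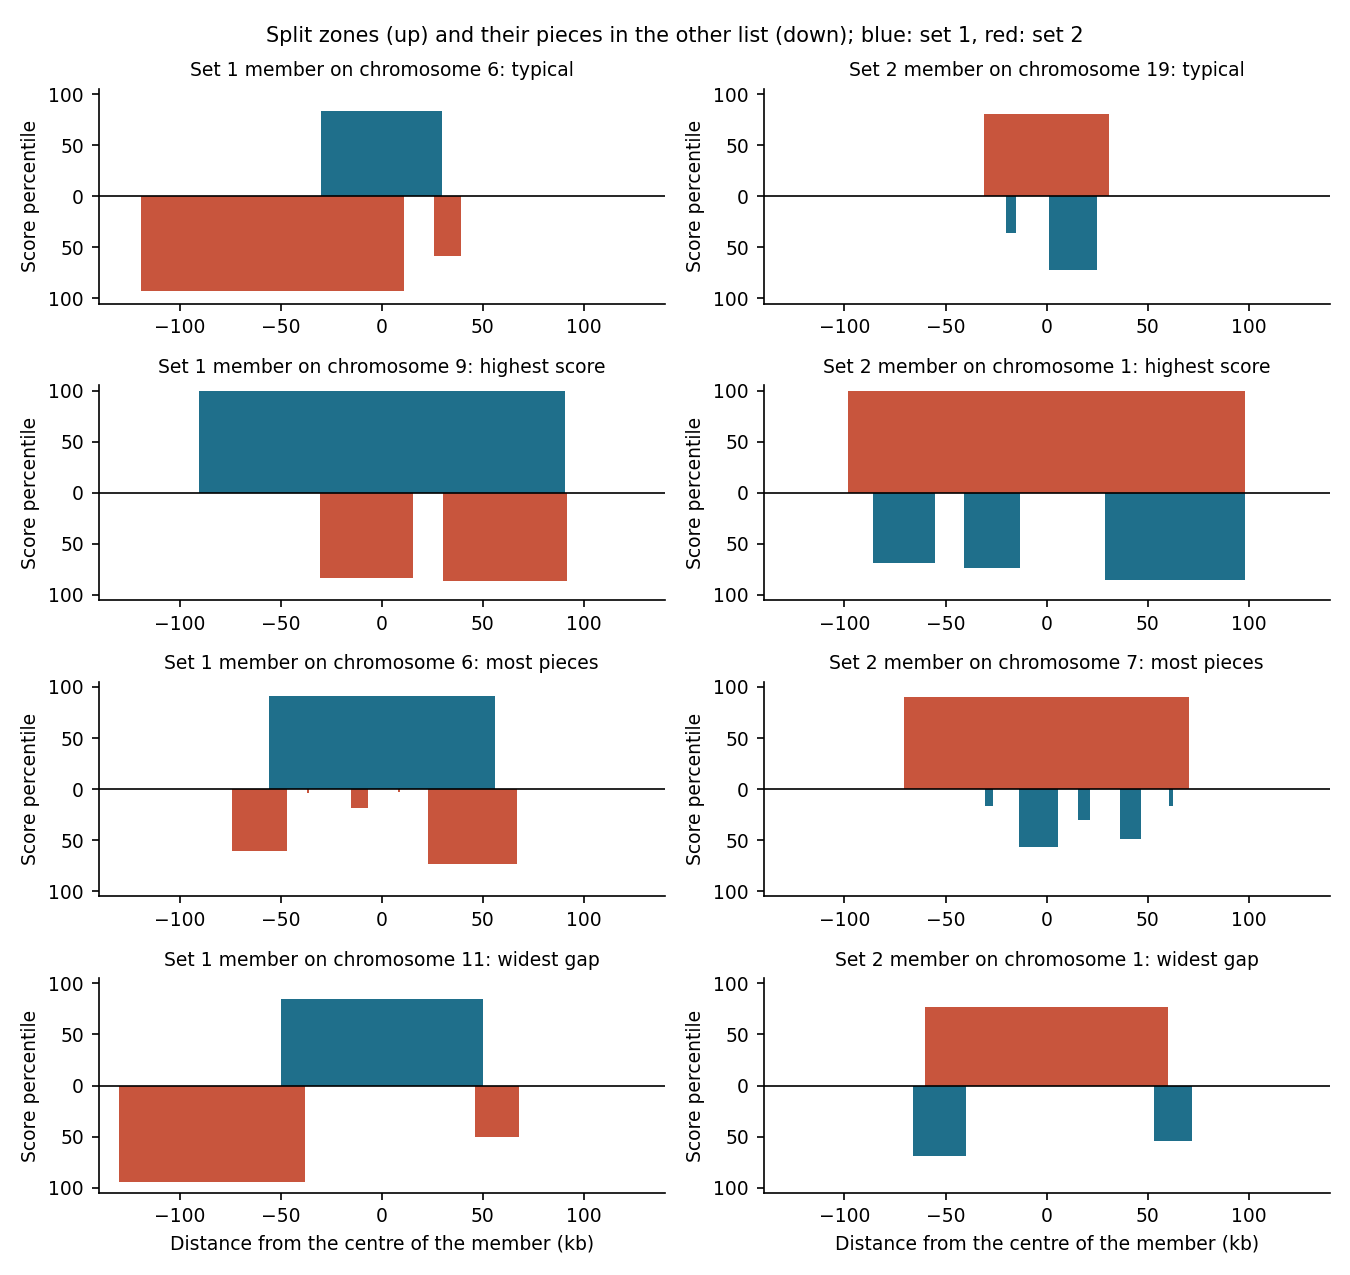
Maps of 8 split zones, with distance from the centre of the member in kb on the horizontal axis. Height is the score percentile of each zone in its own list, upward for the member and downward for its pieces in the other list, with set 1 in blue and set 2 in red. The members nearest the medians in the 4 matched measures have gaps of 15 and 16 kb, and those with the widest gaps have 84 and 93 kb.

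Split zones were wide and lay in the upper part of their list's scores. The median width was 60 kb in set 1 (interquartile range 45 to 80) and 66 kb in set 2 (51 to 85). Zones with 1 partner that met the same exclusion had medians of 27 and 31 kb. The median score was 42.8 in set 1, at percentile 84.1, and 49.5 in set 2, at percentile 82.0. Members made up 12.1% of all bins listed in set 1 (92.9 Mb) and 18.9% in set 2 (149 Mb). A wider zone has more room for a gap, so part of this follows from the rule.

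The share of zones that were split rose over the width classes up to 120 kb. It was 0.171% of set 1 zones and 0.208% of set 2 zones up to 20 kb wide, and 12.6% and 16.5% of those over 40 and up to 60 kb. It reached 27.4% (108 of 394) and 33.9% (191 of 563) over 100 and up to 120 kb. Above 120 kb the share of members was 24.5% and 29.3%, while the share with 2 or more pieces before the exclusion was 53.9% and 69.2%. By score, the share of members was highest between percentiles 80 and 90, at 16.5% in set 1 and 29.3% in set 2. It was 15.3% and 20.4% in the highest 10%, where 22.6% and 35.1% of zones had 2 or more pieces before the exclusion. No zone in the lowest 20% of scores was a member in either list. Zones of the 2 lowest score classes had median widths of 1 and 2 kb in set 1 and 1 and 3 kb in set 2. A member must span a gap of at least 10 kb, so zones this narrow could not be members. Median width rose to 77 and 86 kb in the highest 10% of scores, so the relation to score is not separate from width.

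**Figure D2:**
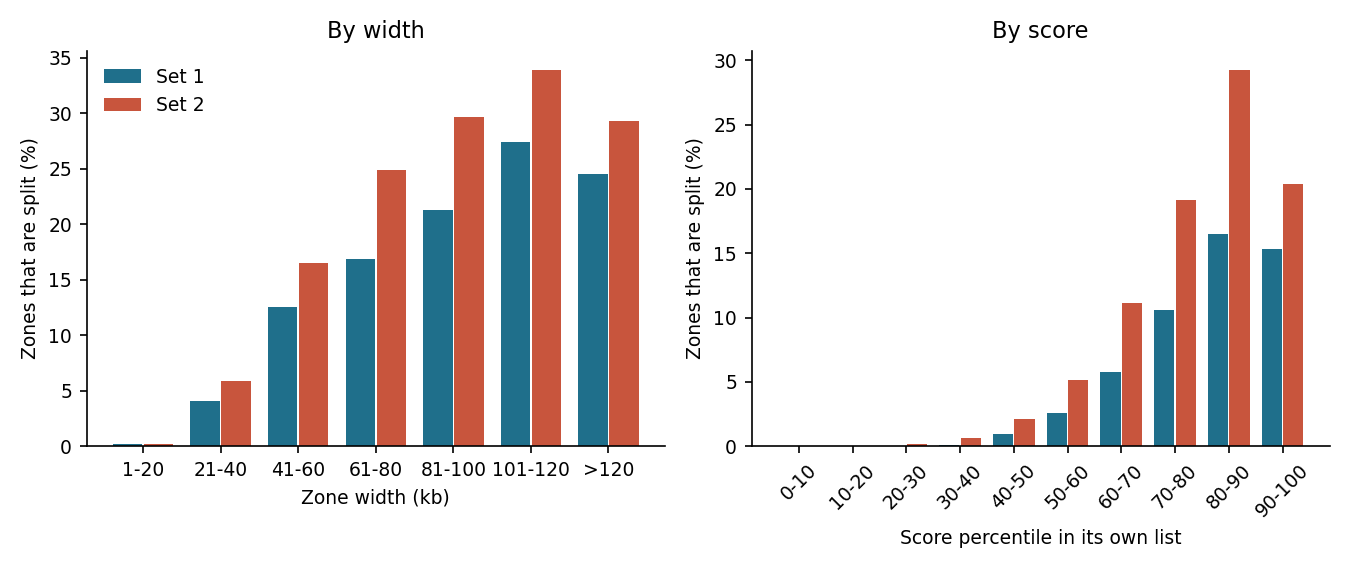
Share of zones on chromosomes 1 to 19 that are split (vertical axis, percent), by zone width in kb (left) and by score percentile in the zone's own list (right), for set 1 (blue) and set 2 (red). The share is below 1% up to 20 kb and highest over 100 and up to 120 kb, where it is 27.4% in set 1 and 33.9% in set 2.

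Members with more pieces were wider in both lists. In set 1 the median width was 59 kb with 2 pieces, 70.5 kb with 3 and 107 kb with 4. In set 2 it was 63, 85 and 111 kb. The rank correlation of width with the number of pieces across members was 0.201 (n = 1441) in set 1 and 0.306 (n = 2134) in set 2. Each further piece adds a gap of at least 10 kb that must lie inside the member, so part of this follows from the rule. Members of 1 list share its libraries, so these values describe the lists.

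The gaps between pieces were short and close to the shortest that the lists contain. Set 1 members held 1604 gaps with a median of 15 kb (interquartile range 12 to 23), and set 2 members held 2484 gaps with a median of 16 kb (12 to 25). The shortest gap between any neighbouring zones of either list was 10 kb, and 203 gaps in set 1 members (12.7%) and 282 in set 2 members (11.4%) had exactly this width. Gaps of 20 kb or less made up 69.3% and 65.5%, and 38 and 67 gaps exceeded 50 kb. The medians varied little by chromosome, with a mean of 15.6 kb ± 1.20 (SD over 19 chromosomes) in set 1 and 16.2 kb ± 0.787 in set 2. A gap took up a median of 28.6% of the member in set 1 and 26.7% in set 2.

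Gaps inside split zones are a subset of all gaps between neighbouring zones, which were wider. Over all of set 2 the median gap was 57 kb, with 22.2% at 20 kb or less. Over all of set 1 it was 48 kb, with 24.8% at 20 kb or less. Of set 2 gaps of 10 to 12 kb, 492 of 2192 (22.4%) lay in a split zone of set 1. This share fell to 12.2% at 21 to 30 kb, to 2.98% at 41 to 60 kb and to 1 of 7693 gaps above 80 kb. Of set 1 gaps of 10 to 12 kb, 716 of 2798 (25.6%) lay in a split zone of set 2, with 15.6% at 21 to 30 kb, 3.61% at 41 to 60 kb and 3 of 7032 above 80 kb. A gap must be narrower than the zone that spans it, so a fall with width is built into the rule. Most short gaps of either list were thus outside the split zones of the other.

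**Figure D3:**
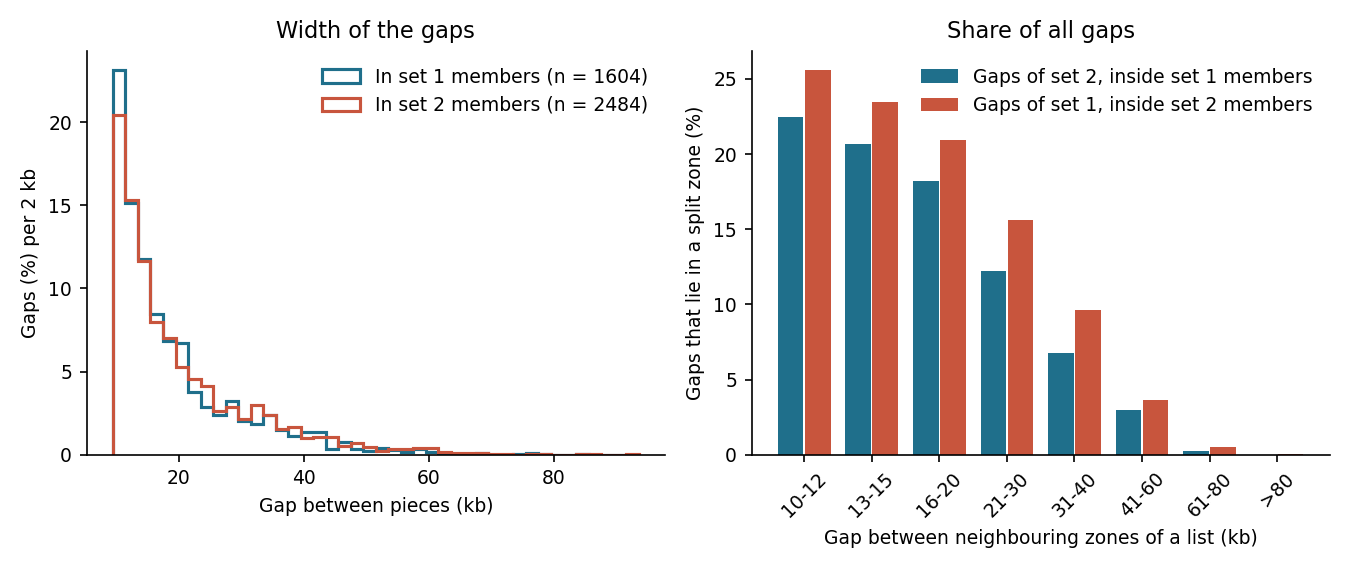
Left, widths of the gaps between pieces in kb against the percent of gaps per 2 kb, in set 1 members (blue) and set 2 members (red). Right, percent of all gaps between neighbouring zones of a list that lie inside a split zone of the other list, by gap width in kb, falling from 22.4% and 25.6% at 10 to 12 kb.

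Gaps lay mostly in the middle of the member. With each member cut into 5 equal stretches, the middle stretch held 33.6% of gap centres in set 1 members and 31.6% in set 2 members. The first and the last held 7.17% and 6.48% in set 1, and 8.17% and 6.96% in set 2. The midpoint of the member fell in a gap in 808 set 1 members (56.1%) and 1171 set 2 members (54.9%). Every gap between pieces lies wholly inside the member by construction, since the member meets the pieces on both sides. A gap also needs room for a piece on each side, which favours the middle.

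Members with the widest gaps had pieces mainly towards their ends, with exceptions. On chromosome 11, the set 1 member from 81076000 to 81175000 (score 43.5) spanned a gap of 84 kb in set 2. The flanking set 2 zones, from 80996000 to 81087000 and from 81172000 to 81193000, had scores of 101.2 and 8.90, and only 16% of the member was covered by them. Another set 1 member on chromosome 11, from 102051000 to 102149000, spanned a gap of 78 kb, and one on chromosome 5, from 53387000 to 53528000, spanned a gap of 77 kb. In the latter, the left piece met the member in its first bin only, while the right piece lay inside it over most of its length. In set 2, the widest gap was 93 kb, inside the member on chromosome 1 from 3524000 to 3643000 (score 38.1). Its pieces in set 1 had scores of 20.4 and 9.30 and covered 22.5% of it. The next 2 were on chromosome 15, from 65513000 to 65628000, with a gap of 87 kb, and on chromosome 11, from 50690000 to 50846000, with gaps of 15 and 84 kb.

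Pieces left a large part of the typical split zone uncovered. The median covered share of the member's bins was 48.1% in set 1 (interquartile range 30 to 63.5) and 45.6% in set 2 (28.8 to 61.0). Over the 19 chromosomes the medians averaged 47.5% ± 4.23 (SD) and 45.5% ± 3.14. Taken over all members, the gaps took only a part of the uncovered bins, and the rest lay between the ends of the member and its outermost pieces. In members with both ends covered by pieces, the gaps took all of the uncovered bins.

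The outer pieces often extended past the member. In 258 set 1 members (17.9%) and 517 set 2 members (24.2%), neither outer piece went beyond the zone. In 767 (53.2%) and 1132 (53.0%), 1 outer piece did so, and in 416 (28.9%) and 485 (22.7%) both did. Members with neither piece beyond were covered to a median of 36.1% and 36.4%, against 60.7% and 58.8% where both went beyond. The top piece, the one with the highest score, also stood lower in its list when neither went beyond, at a median percentile of 47.7 and 54.2, against 76.7 and 79.9. Where both go beyond, the ends of the member are covered by definition and only the gaps stay uncovered. Where neither does, all pieces must fit inside the member. Part of both differences thus follows from how these classes are defined. Of the 3045 pieces of set 1 members, 1446 (47.5%) lay wholly inside and 945 (31.0%) had under 50% of their bins inside. Of the 4618 pieces of set 2 members, the numbers were 2516 (54.5%) and 1179 (25.5%).

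Pieces stood near the middle of their list in score and were narrower than the members. Their median width was 21 kb for set 1 members and 19 kb for set 2 members. Their median score percentile was 48.6 and 50.3, which is close to the middle of each list. This was below zones with 1 partner under the same exclusion, at 58.5 in set 2 and 60.4 in set 1. Those zones can be pieces themselves and were wider, with medians of 31 and 27 kb, so the difference is not separate from width. Zones of a single bin made up 10.2% of the pieces of set 1 members, against 10.2% of all set 2 zones. For set 2 members the share was 10.4%, against 11.4% of all set 1 zones. At least 1 piece of a single bin occurred in 291 set 1 members (20.2%) and 454 set 2 members (21.3%).

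One piece carried most of the summed score. The top piece held a median of 86.2% of the summed piece score in set 1 members (interquartile range 68.2 to 95.8) and 83.2% in set 2 members (66.7 to 95.4). In 2-piece members the weaker piece had a median of 14.8% of the stronger one's score in set 1 and 16.3% in set 2. It had under 10% in 542 (42.0%) and 721 (39.6%) of them. It had at least 50% in 284 (22.0%) and 384 (21.1%). The left piece was the stronger in 48.6% of the 2-piece members of set 1 and 50.2% of those of set 2. Where zones below the 25th percentile of score were left out of both lists, the top piece held 76.3% and 74.9%, and 873 and 1368 members were left.

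The 2-piece members were also classed by the median score of the list that holds the pieces. Both pieces stood at or above the median score of their list in 300 of 1291 2-piece members of set 1 (23.2%) and 470 of 1819 of set 2 (25.8%). These members had a median width of 71 and 75 kb, a median gap of 18 kb in both lists, and 65.1% and 62.4% of their bins covered. Both pieces stood below the median in 289 (22.4%) and 373 (20.5%), with widths of 47 and 53 kb, gaps of 15 and 16 kb, and 26.0% and 22.4% covered. The remaining 702 and 976 had 1 piece on each side of the median. The pieces' median percentiles of 48.6 and 50.3 lay close to the middle of the lists, so the size of these classes is not read as a property of split zones.

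Members stood higher in their own list than their top piece did in the other. The median difference in score percentile was 15.7 points in set 1 (interquartile range 4.68 to 28.4) and 10.96 points in set 2 (-0.733 to 24.0). The mean of the chromosome medians was 15.6 ± 2.86 (SD over 19 chromosomes) and 11.2 ± 2.52. In 272 set 1 members (18.9%) and 562 set 2 members (26.3%) the top piece stood higher than the member. The rank correlation of the 2 percentiles was 0.356 in set 1 (n = 1441) and 0.332 in set 2 (n = 2134). The exclusion removes pairs with both values high, which adds to the difference. Its effect on the correlation was not computed. Without the exclusion, the difference was 12.9 points in set 1 and 8.19 in set 2. With at least 50% of each piece inside the member, it was 25.5 and 18.2 points. The rule also takes wide zones as members, with median widths of 60 and 66 kb, against 21 and 19 kb in their pieces. In members, score percentile rose with width, at rank correlations of 0.781 in set 1 and 0.749 in set 2. The difference is thus not separate from width.

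**Figure D4:**
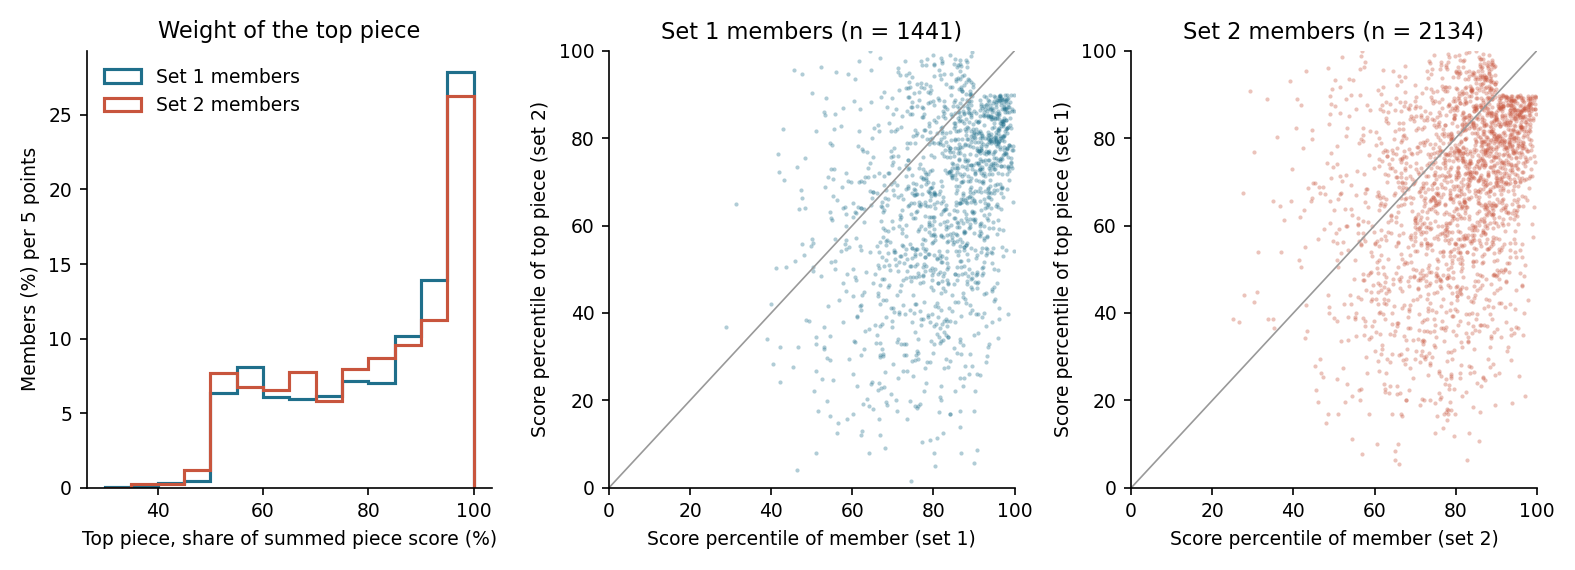
Left, share of the summed piece score held by the top piece (percent, horizontal axis) against the percent of members per 5 points, with medians of 86.2% in set 1 (blue) and 83.2% in set 2 (red). Middle and right, score percentile of each member against that of its top piece, 1 point per member, with the line of equality in grey. The empty upper right corner is the exclusion of pairs strong in both lists.

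Among the members, 423 of set 1 (29.4%) and 491 of set 2 (23.0%) were themselves at or above the 90th percentile of their list, at scores of 59.4 and 75.4. None of these had a piece at or above that percentile, as the rule requires. Their median width was 86 and 93 kb, their widest gap had a median of 20 kb in both lists, and their top piece stood at a median percentile of 77.1 and 79.1. Among members below the 90th percentile, 90 of set 1 and 176 of set 2 had a piece at or above it.

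The highest-scoring split zone of set 1 lay on chromosome 9, from 31791000 to 31971000, at a score of 175 (percentile 99.9). Set 2 listed 2 similar pieces there, from 31851000 to 31896000 with a score of 54.9 and from 31912000 to 31972000 with a score of 61.5, at percentiles 83.9 and 86.2. The gap was 15 kb, and the stretch of the member to the left of the first piece had no zone of set 2. Chromosome 19 held the next, from 60709000 to 60821000, with a score of 167 and pieces of 52.9 and 75.4 across 13 kb. Chromosome 17 held the third, from 23036000 to 23126000, with a score of 164. It differed from these in that both pieces were weak, at 11.1 and 3.59 (percentiles 54.3 and 37.7), and covered 27.5% of the zone.

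In set 2 the highest score among split zones was 202 on chromosome 1, from 192393000 to 192588000. Set 1 listed 3 pieces there with scores of 20.6, 26.1 and 46.4, and the gaps were 14 and 42 kb. On chromosome 3, the member from 64077000 to 64271000 had a score of 199 and 4 pieces, with scores that increased from left to right, 3.98, 14.2, 24.4 and 57.6, across gaps of 15, 14 and 11 kb. On chromosome 14, the member from 86841000 to 86922000 had a score of 185 at a width of 82 kb. Its 2 pieces, with scores of 52.6 and 37.7, lay mainly outside it and left a gap of 55 kb that reached almost to its right end.

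The members with the most pieces combined small and large ones. On chromosome 6, the set 1 member from 144325000 to 144436000 (112 kb, score 65.7) had 5 pieces in set 2. The outer pieces had scores of 16.1 and 31.1, and the 3 inner ones, of 1, 8 and 1 kb, had scores of 0.132, 0.701 and 0.0877. The gaps from left to right were 10, 21, 15 and 14 kb. On chromosome 7, the set 2 member from 29549000 to 29689000 (141 kb, score 78.4) also had 5 pieces, all inside it, with scores of 0.629, 10.9, 1.96, 6.70 and 0.655. They covered 29.1% of the zone, and none stood above percentile 57.0 of set 1.

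The others named for their number of pieces had 4 each. In set 1 these lay on chromosome 14, from 100474000 to 100607000 (score 151), and on chromosome 4, from 108169000 to 108335000 (score 131). In set 2, besides the member on chromosome 3 above, the member on chromosome 17 from 82527000 to 82698000 (score 180) had 4 pieces, the largest with a score of 57.6. In each of these 3 zones the 2 highest-scoring pieces carried most of the summed score, and the weakest were 1 to 12 kb wide.

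At the other end, the narrowest members were little wider than a single gap. In set 1 these were a 13 kb zone on chromosome 14, from 16154000 to 16166000, and a 14 kb zone on chromosome 18, from 69222000 to 69235000, with gaps of 10 and 11 kb. In set 2 they were a 16 kb zone on chromosome 4, from 71531000 to 71546000, and a 17 kb zone on chromosome 1, from 70412000 to 70428000, also with gaps of 10 and 11 kb. All 4 met their pieces only at their ends.

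The threshold of the exclusion separated zones of similar score. The highest-scoring member of set 1 that had a strong piece but was itself below the threshold lay on chromosome 14, from 68794000 to 68855000, with a score of 58.9 and pieces of 83.5 and 12.9. The lowest-scoring zone left out of set 1 lay on chromosome 18, from 53260000 to 53316000, with a score of 59.6 and pieces of 128 and 0.0438. In set 2 the member lay on chromosome 3, from 138129000 to 138253000, with a score of 74.9 (percentile 89.9). Its top piece, with a score of 71.0, ranked higher, at percentile 92.8 of set 1. The zone left out lay on chromosome 4, from 91268000 to 91355000, with a score of 76.0 and pieces of 99.6 and 14.7.

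Split zones that were strong in both lists, and hence left out, were compared as the most similar group. The 202 of set 1 and 356 of set 2 had a median width of 108 and 117 kb, and their gaps had medians of 17 and 18 kb, close to the 15 and 16 kb of the members. Their pieces covered 71.7% and 67.8% of the zone, against 48.1% and 45.6% in members. The middle of 5 equal stretches held 14.2% and 19.1% of their gap centres, against 33.6% and 31.6% in members. A gap took up a median of 15.6% and 15.8% of these wider zones, against 28.6% and 26.7% of members. The differences in coverage and gap position are thus not separate from width. The score of these zones set them apart by rule, so the differences are given without a test.

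Scores per kb of members and of zones with 1 partner that met the same exclusion were compared within width classes, and the difference varied by class. Up to 20 kb, the median was 0.488 in 25 members of set 1, against 0.314 in 5208 zones with 1 partner. In set 2 it was 0.443 in 24 members, against 0.263 in 3995. Widths in this class were not matched, since a member must span a gap of at least 10 kb. The narrowest members were 13 kb (set 1) and 16 kb (set 2) wide, while zones with 1 partner went down to 1 kb. Among zones over 40 and up to 60 kb wide, the median was 0.677 per kb in 467 members of set 1 and 0.706 in 2548 zones with 1 partner. In set 2 it was 0.722 in 572 members and 0.696 in 2355. Over 80 and up to 100 kb, it was 0.764 (interquartile range 0.572 to 0.952, n = 174) against 0.682 (0.550 to 0.905, n = 260) in set 1. In set 2 it was 0.778 (0.586 to 1.001, n = 316) against 0.739 (0.577 to 0.934, n = 336). Over 100 and up to 120 kb it was 0.754 (n = 108) against 0.609 (n = 65) in set 1, and 0.753 (n = 191) against 0.682 (n = 92) in set 2. Members were thus higher in both lists in the classes over 80 and up to 120 kb. They were also higher in the narrowest class, where widths were not matched. Over 60 and up to 80 kb they were slightly higher, at 0.775 against 0.761 in set 1 and 0.826 against 0.813 in set 2. Above 120 kb the medians were 0.671 against 0.610 and 0.714 against 0.683, with only 16 and 27 zones with 1 partner. In the classes over 20 and up to 40 kb and over 40 and up to 60 kb the order differed between the lists. The interquartile ranges of members and zones with 1 partner overlapped in all of these classes. The exclusion did not act alike on the 2 groups. Of 816 set 1 zones over 80 and up to 100 kb, 174 were members, 260 had 1 partner under the exclusion and 4 had none. A further 41 split zones were left out, and all others had 1 partner and were left out. Over all widths, such 1-partner zones had a median of 1.16 per kb in set 1 and 1.31 in set 2. The differences in wide classes are thus not separate from the exclusion.

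Wide pieces scored lower per kb than other zones of their width. Among zones over 80 and up to 100 kb, the 77 pieces of set 1 members had a median of 0.698 per kb, against 0.971 in the other 988 zones of set 2. The 80 pieces of set 2 members had 0.648 per kb, against 0.918 in the other 736 zones of set 1. For zones up to 20 kb the order was the opposite, at 0.276 against 0.237 and at 0.314 against 0.288. The exclusion removes high-scoring wide pieces, while the other zones still include zones strong in both lists. At least part of the first difference thus follows from the rule. Over 80 and up to 100 kb, 1-partner zones under the same exclusion had 0.739 per kb in set 2 and 0.682 in set 1. Some of those zones can be pieces themselves. The pieces' medians of 0.698 and 0.648 lay closer to these values than to those of the other zones.

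Some splits in the 2 directions overlapped. A set 1 member shared a bin with a set 2 member in 345 cases (23.9% of set 1 members), and 339 set 2 members (15.9%) did so in return. Over all zones, 16.5% of set 1 shared a bin with a set 2 member and 12.5% of set 2 with a set 1 member. Members are wider than other zones, which gives them more bins to share, and nothing is read from the overlap. Neighbouring members of the same list shared a piece 17 times in set 1 and 11 times in set 2, so the members are not all separate from each other. Linking members to their pieces gave 3219 separate chains with a median span of 83 kb. Of these, 2891 held 1 member, 304 held 2, 20 held 3 and 4 held 4. The longest span of any chain was 272 kb, on chromosome 1 with 3 members. Of the 4 chains tied at 4 members, the widest lay on chromosome 4, from 42874000 to 43102000 (229 kb). Its set 2 member from 42923000 to 43004000 (score 62.9) met 3 zones of set 1, of which those from 42908000 to 42934000 and from 43001000 to 43079000 were members in turn, with scores of 14.3 and 91.0. On chromosome 14, from 118278000 to 118497000, the next widest of the 4 had members with scores of 28.8 and 31.9 in set 1 and 68.9 and 86.8 in set 2.

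Split zones were spread over all 19 chromosomes. The share of zones that were members had a mean of 5.13% ± 0.709 (SD over 19 chromosomes) in set 1 and 8.81% ± 0.735 in set 2. In set 1 it was lowest on chromosome 8 (3.82%, 60 of 1571) and highest on chromosome 7 (6.27%, 100 of 1594). In set 2 it was lowest on chromosome 4 (7.72%, 120 of 1555) and highest on chromosome 8 (10.4%, 133 of 1278). Chromosome 8 was thus at opposite ends of the order in the 2 lists, and the ratio of set 2 to set 1 members was 2.22 there, against 1.24 to 1.88 elsewhere. The rank correlation of the shares between the lists was -0.0526 over the 19 chromosomes. Set 1 listed 1.23 times as many zones as set 2 on chromosome 8, the highest such ratio of the 19 chromosomes. Across chromosomes the rank correlation of the 2 ratios was 0.196 (n = 19), and the part of zone number in the result was not tested.

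**Figure D5:**
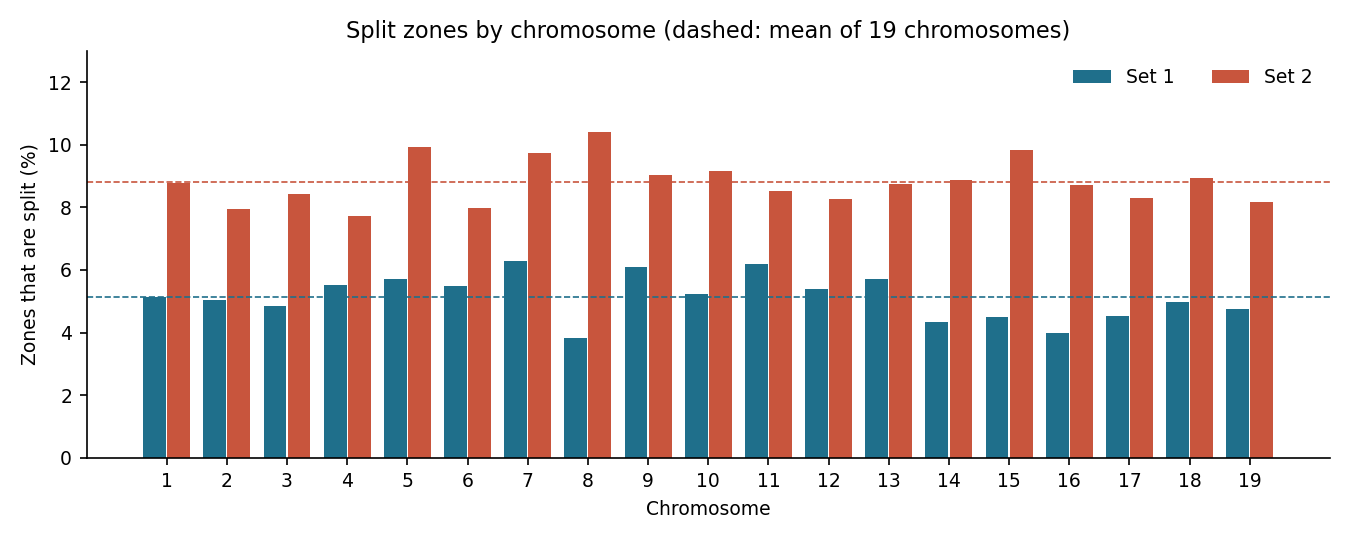
Share of zones that are split (vertical axis, percent) on each of the 19 chromosomes, in set 1 (blue) and set 2 (red), with the mean of the chromosomes as a dashed line of the same colour. Chromosome 8 has the lowest bar of set 1 (3.82%) and the highest of set 2 (10.4%).

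On chromosomes 11 and 19 the shares were 6.18% and 4.75% in set 1 and 8.51% and 8.18% in set 2. On chromosomes 13 and 14 they were 5.71% and 4.34% in set 1 and 8.75% and 8.88% in set 2. Along the chromosomes, the third nearest the start of the listed span had 4.61% of its set 1 zones as members, the middle 5.34% and the last 5.55%. In set 2 these shares were 8.62%, 8.51% and 9.27%. Midpoints of neighbouring members were separated by a median of 1145 kb (set 1) and 795.5 kb (set 2).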

How the data were processed

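Each line of a list holds a zone's chromosome, its first and last position and its score, with no header. The score was deposited by the authors without a stated unit. Reads were aligned with Bowtie2 to GRCm39, per the submitters' processing notes, while the sources used here do not give the aligner's version, the zone caller or its settings. The 2 other columns that the authors deposited are positions in whole kilobases and were read as first and last 1 kb bins, both inside the zone. Score percentiles are mid-ranks within the whole list. A piece shares at least 1 bin with the member, and a gap is the run of bins between neighbouring pieces. Depth per library is unknown from the lists, so no interval for counting error is given. No test was made, since overlap and score chose the members. The members, measures and named regions follow rules chosen with earlier results of these data known. Named, per list, were the 3 members with most pieces, highest score and widest gap, the 2 narrowest and those at the threshold. Also named were each list's 2-piece member nearest the medians in the matched measures, and the 2 chains with most members, ties by span. Gap and member finding was tested on simulated data with planted splits. Gene and sequence tables at hand are on GRCm38.p6, so genes and sequences were not analysed here. Python 3.11.15, NumPy 2.4.6, pandas 2.3.3, NetworkX 3.6.1 and Matplotlib 3.10.9 were used.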

Additional observations from a re-analysis of the deposited data

How the results depend on the processing

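Of 100 values (10 measures under 10 alternatives), 62 stayed within 1.5 times the reported count or 1 SD over chromosomes and 38 moved. Only the percentile differences could change sign, and they did not. Asking for 5 shared bins gave 683 and 1088 members (set 1, then set 2), gaps of 17 and 17.5 kb, top-piece shares of 77.7% and 76.0%, and coverage of 58.9% and 54.3%. Asking for 50% of each piece inside gave 716 and 1240 members, a gap of 15 kb in set 2, and percentile differences of 25.5 and 18.2 points. Leaving out the lowest 25% of scores gave 873 and 1368 members, gaps of 17 kb in both, top-piece shares of 76.3% and 74.9%, and coverage of 55.1% and 51.7%. Joining zones removes every gap up to the joined width, so the wider gaps here follow by construction. Across 15 kb, gaps were 25 kb in both. Across 20 kb there were 910 and 1252 members, gaps of 33 and 32 kb, and a top-piece share of 80.4% in set 2. With the last position taken as an interval end, 1-bin zones vanish and every gap widens by at least 1 kb. Gaps were then 17 and 18 kb, and top-piece shares 81.5% and 80.2%. With the exclusion at the 80th percentile, coverage was 43.2% and 40.8% and the differences 20.4 and 16.1 points. Without it, set 2 had 50% coverage and 8.19 points. For moves without a stated construction, the cause was not tested. Adding X or excluding at the 95th percentile moved none of the 10 measures. The share of members with all gaps inside, 100% by construction, is left out of these counts. Leaving out a list was not possible, since the rule needs both. No paired analysis was possible because neither list gives library values. What depth limits is unknown from the lists.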

Other observations

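The X chromosome lies outside the rule and was counted the same way. It held 100 split zones in set 1 (5.09% of 1966) and 154 in set 2 (8.65% of 1780), close to the means of the 19 autosomes. Their median width was 54.5 and 60.5 kb, and the median gap between pieces was 15 kb in both lists. The pieces covered 41.3% and 39.5% of the zone, and the top piece held 85.3% and 79.8% of the summed piece score.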
